A study of Homo sapiens with 6 samples.

Results

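The genes described here are 4 ERBB receptor tyrosine kinases (EGFR, ERBB2, ERBB3 and ERBB4), 5 ligands of the EGF family (AREG, EREG, TGFA, HBEGF and BTC) and ERRFI1, an intracellular inhibitor of the receptors. They were chosen by gene symbol as members of 1 signalling family, and all 10 were found among the 26364 genes of the deposited table. The cells were T47D, a long-established cell line from a human breast cancer of the luminal A type. They were transfected with an siRNA against ELF5 (siELF5, Ambion AM16708) or with a control siRNA (siNC, Ambion 4390846), and RNA was taken 48 h later. Each group held 3 RNA-seq libraries and received 1 siRNA, so each difference is between these siRNA products as well as between their targets. ELF5 is a transcription factor of the ETS family that acts in luminal cells of the mammary gland, and the series title concerns its part in epithelial integrity. Separate cultures are not stated for the replicates, so a p-value here measures spread among these libraries alone, and that spread may be technical.

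ERBB receptors sit in the cell membrane and form dimers, mostly after a ligand binds, and the paired kinase domains then start signalling through the RAS-ERK and PI3K-AKT routes. ERBB2 has no known ligand of its own and ERBB3 has a weak kinase, so both act largely as dimer partners, and the ERBB2-ERBB3 pair is a strong driver of growth in breast epithelium. The EGF-family ligands are made as membrane proteins that metalloproteases release, and AREG, acting on EGFR, is the main one in growth of the mammary duct.

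Promoter sequences are shown for the receptor that rose, the receptor that fell most and the inhibitor, because the target of the knockdown is an ETS factor and ETS proteins bind a GGAA core. RefSeq promoter windows, 250 bases before to 50 bases after a gene's start, were available for 9 of the 10 genes (11 windows in all, on GRCh38.p14). Capitals mark GGAA on either strand, which reads as TTCC when it lies on the other strand, and neighbouring matches can touch. The windows lie at chr7:55018767-55019066 for EGFR (plus strand), at chr17:39687844-39688143 for ERBB2 (plus strand) and at chr1:8026260-8026559 for ERRFI1 (minus strand).
EGFR: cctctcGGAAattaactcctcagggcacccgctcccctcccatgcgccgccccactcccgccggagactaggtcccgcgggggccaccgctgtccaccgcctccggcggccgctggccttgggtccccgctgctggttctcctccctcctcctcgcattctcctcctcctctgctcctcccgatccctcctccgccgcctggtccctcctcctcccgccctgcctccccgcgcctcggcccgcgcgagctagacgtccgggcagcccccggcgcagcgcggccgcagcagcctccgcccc
ERBB2: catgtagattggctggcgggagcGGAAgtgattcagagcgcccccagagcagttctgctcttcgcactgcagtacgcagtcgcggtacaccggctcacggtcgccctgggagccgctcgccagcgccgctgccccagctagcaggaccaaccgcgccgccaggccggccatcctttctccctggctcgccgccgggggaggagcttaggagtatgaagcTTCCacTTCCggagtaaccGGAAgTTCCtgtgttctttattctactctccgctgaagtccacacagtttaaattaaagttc
ERRFI1: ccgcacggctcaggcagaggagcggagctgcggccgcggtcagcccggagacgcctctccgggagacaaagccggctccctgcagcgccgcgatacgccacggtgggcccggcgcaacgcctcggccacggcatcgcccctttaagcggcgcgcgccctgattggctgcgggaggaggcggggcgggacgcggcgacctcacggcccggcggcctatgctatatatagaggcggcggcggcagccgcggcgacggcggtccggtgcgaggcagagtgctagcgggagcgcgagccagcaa
The EGFR window held 1 GGAA and the ERRFI1 window none, while the ERBB2 window held 5. Of these 5, 3 lay in the longer form CGGAAG. Of all 35116 windows of this length, 95.5% held at least 1 GGAA, with a median of 3, and 16.2% held at most 1. At least 3 CGGAAG were present in 1.23% of all windows and in 1.98% of the 16340 windows of tested genes. GC content was 75.3% in the EGFR window, 74.7% in the ERRFI1 window and 60.7% in the ERBB2 window. The shares over all windows were not matched for GC content. The ERBB2 window holds the starts of 3 of 22 annotated ERBB2 transcripts, and 264 of its 300 bases are also exon of PGAP3, the neighbour on the opposite strand. Among the other windows, TGFA had 7 and 3 matches, a second EGFR start 5, ERBB4 and EREG 5 each, AREG and HBEGF 3 each and BTC 2. These are letter matches only, and binding of ELF5 was not measured here.

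The libraries held 66.8 M to 83.7 M assigned reads. ELF5 itself had normalised read counts of 3678, 3725 and 3638 in siELF5 and of 13225, 13148 and 12910.2 in siNC. It was at 28.1% of the siNC mean in siELF5, and its log2 fold change was -1.83 (limma adjusted p = 3.26e-12), which matched the labels of all 6 libraries. The libraries also differed in how they represent transcripts rich in G and C. A GC score per library, the excess of the GC-richest genes over genes of middle GC content on the log2 scale, was 0.22, 0.28 and 0.22 in siELF5 and -0.39, -0.22 and -0.07 in siNC. Because the groups did not overlap in this score, the fold changes and counts below are set beside those after a GC correction per library and with the score as a covariate, except for receptor shares and levels, and the effect of the siRNA and of library composition cannot be told apart.

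EGFR rose about 2-fold after ELF5 knockdown, while the other receptors, the ligands AREG and TGFA and the inhibitor ERRFI1 fell. Of the 10 genes, 7 passed the test (limma on log2(normalised count + 1), Benjamini-Hochberg adjusted p under 0.05 over all 16032 genes tested), against 47.1% of all tested genes. EGFR was the 1 gene that rose, where 23.8% of tested genes rose, and 6 fell, where 23.3% of tested genes fell. Most of the 10 genes were abundant, and 8 had a mean of at least 1000 normalised reads. Of these 8 genes 7 were called, against 58.3% of all tested genes with such a mean. The median log2 fold change was -0.15 over the 10 genes and 0.00 over all tested genes. In 6 of the 10 genes the siELF5 and siNC values did not overlap, against 55.9% of all tested genes. All 10 genes passed the filter on low values. In bulk RNA of this kind fewer cells of one state and less RNA per cell cannot be told apart.

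**Figure D1:**
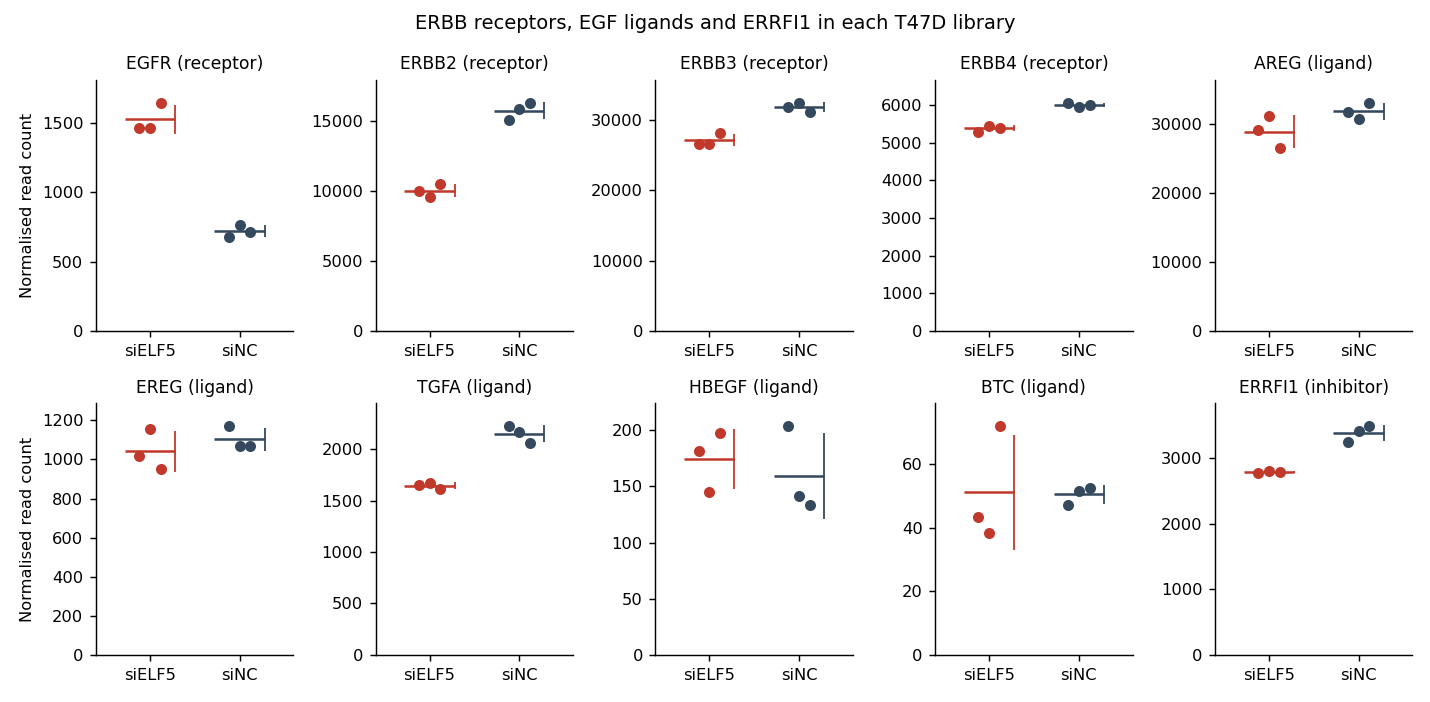
Normalised read count (vertical axis, from 0, a separate scale per gene) of each of the 10 genes in the siELF5 libraries (red, left) and the siNC libraries (dark blue, right). Points are libraries, horizontal lines are means and vertical lines are 1 SD (n = 3). EGFR lies higher in every siELF5 library, ERBB2, ERBB3, ERBB4, TGFA and ERRFI1 lie lower in every siELF5 library, and the groups overlap for AREG, EREG, HBEGF and BTC.

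EGFR, the receptor of AREG, TGFA and EGF, had 1465, 1465 and 1647 normalised reads in siELF5 and 679.6, 766 and 715 in siNC. The lowest siELF5 library was well above the highest siNC library. The means were 1526 ± 105 in siELF5 and 720.2 ± 43.7 in siNC (SD, n = 3 each), so that siELF5 stood at 212% of siNC. The log2 fold change was 1.08 (95% interval 0.93 to 1.24, SE 0.071, limma adjusted p = 1.37e-07). A total of 460 of the tested genes (2.87%) had a log2 fold change as large or larger. It was 1.12 after GC correction (limma adjusted p = 2.74e-09) and 1.00 with the GC score as a covariate (limma adjusted p = 0.00182). The antisense gene EGFR-AS1 shares 1.49% of the EGFR exon bases and averaged 8.6 normalised reads over the 6 libraries, so its reads, which an unstranded kit cannot separate, are few beside those of EGFR.

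ERBB2, the co-receptor that other ERBB proteins prefer as a partner, moved the other way. It had 9987, 9572 and 10528 normalised reads in siELF5 against 15060.1, 15866 and 16316 in siNC, and every siELF5 library was lower than every siNC library. The means were 10029 ± 479 in siELF5 and 15747 ± 636 in siNC (SD, n = 3 each), and siELF5 stood at 63.7% of siNC. The log2 fold change was -0.65 (95% interval -0.74 to -0.56, SE 0.041, limma adjusted p = 9.13e-08), and 516 tested genes (3.22%) fell as far or further. The fall was slightly larger under both GC adjustments, -0.70 after correction (limma adjusted p = 4.62e-11) and -0.78 with the score (limma adjusted p = 4.42e-05).

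ERBB2 lies between PGAP3 and MIEN1 on chromosome 17, and neither neighbour passed the test without GC adjustment. MIEN1, a small membrane-anchored protein gene that overlaps 5.53% of the ERBB2 exon bases on the opposite strand, had 2320.5 ± 45.8 normalised reads in siELF5 and 2319 ± 72.2 in siNC (SD, n = 3 each), a log2 fold change of 0.00 (95% interval -0.10 to 0.10). PGAP3, which overlaps 1.88%, averaged 816 in siELF5 and 861 in siNC, with a log2 fold change of -0.08 (95% interval -0.25 to 0.09, limma adjusted p = 0.453). After GC correction PGAP3 was called lower, at -0.23 (limma adjusted p = 0.015), and MIEN1 was at 0.01. Among 7 tested genes of the 17q12 segment that is often amplified together with ERBB2, STARD3, a cholesterol transfer protein, rose by 0.41 and PPP1R1B by 0.77 on the log2 scale. GRB7, an adaptor that binds ERBB receptors, fell by 0.31 (SE 0.076, limma adjusted p = 0.00539), and TCAP and PNMT were low and did not pass. Changes of STARD3 and PPP1R1B were not called with the GC score as a covariate, where their log2 fold changes were 0.04 and -0.49, while that of GRB7 was (limma adjusted p = 0.0153).

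ERBB3 and ERBB4, the receptors of the neuregulins, fell by less. ERBB3 had 26649, 26607 and 28106 normalised reads in siELF5 and 31881, 32479 and 31175 in siNC, without overlap, and its siELF5 mean was 85.2% of the siNC mean. Its log2 fold change was -0.23 (SE 0.031, limma adjusted p = 6.53e-05). ERBB4 had 5294, 5452 and 5384 in siELF5 and 6061, 5955 and 5987 in siNC, again without overlap. Its siELF5 mean was 89.6% of the siNC mean, and its log2 fold change was -0.16 (SE 0.034, limma adjusted p = 0.00207). Both calls held after GC correction, at -0.21 and -0.12. With the GC score as a covariate the values were similar, -0.18 for ERBB3 (limma adjusted p = 0.221) and -0.14 for ERBB4 (limma adjusted p = 0.414), but neither passed.

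The make-up of the receptor transcripts shifted accordingly. Per kilobase of the longest annotated transcript, ERBB3 was the most abundant receptor in every library, followed by ERBB2, ERBB4 and EGFR. EGFR made up 2.10%, 2.12% and 2.24% of the summed receptor count per kilobase in siELF5 and 0.77%, 0.84% and 0.80% in siNC. ERBB2 made up 28.2 ± 0.51% in siELF5 and 34.9 ± 1.16% in siNC (SD, n = 3 each). ERBB3 held 63.5 ± 0.33% in siELF5 and 58.9 ± 1.12% in siNC, and ERBB4 held 6.15 ± 0.23% in siELF5 and 5.41 ± 0.13% in siNC. For each receptor the shares did not overlap between the groups, and shares of 1 total are not independent of each other.

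Expressed as ratios of levels per kilobase, ERBB2 exceeded EGFR 13.1 ± 0.43 times in siELF5 and 43.6 ± 2.17 times in siNC (SD, n = 3 each). ERBB3 exceeded ERBB2 2.25 ± 0.053 times in siELF5 and 1.69 ± 0.087 times in siNC. The summed receptor level was 7215 ± 246 normalised reads per kilobase in siELF5 and 9142 ± 132 in siNC, a ratio of 0.789, so the gain of EGFR was small beside the loss of the more abundant receptors. With the bases of all annotated exons as the length, EGFR held 2.70% in siELF5 and 1.03% in siNC and ERBB2 held 21.6% in siELF5 and 27.4% in siNC.

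**Figure D2:**
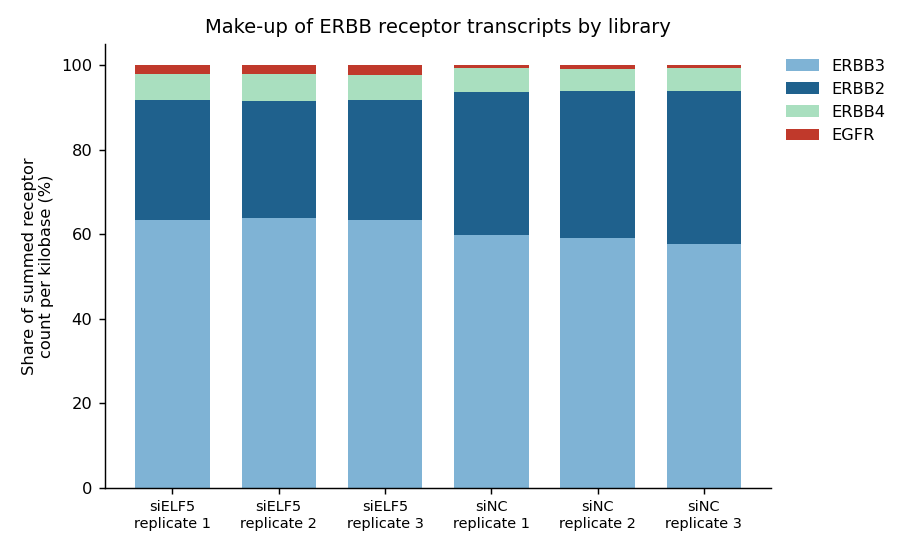
Share of each receptor in the summed normalised read count per kilobase of longest transcript (vertical axis, %), one bar per library, siELF5 at left and siNC at right. ERBB3 forms the bottom block, then ERBB2, ERBB4 and EGFR. The EGFR block at the top is between 2.10% and 2.24% in siELF5 and between 0.77% and 0.84% in siNC, and the ERBB2 block is smaller in siELF5.

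Among the ligands, TGFA showed the clearest difference. TGFA, a high-affinity EGFR ligand, had 1655, 1674 and 1610.3 normalised reads in siELF5 and 2223, 2165 and 2062 in siNC, and was the 1 ligand of the 5 whose groups did not overlap. Its mean was 1647 ± 32.8 in siELF5 and 2149.6 ± 81.6 in siNC (SD, n = 3 each), and the log2 fold change was -0.38 (SE 0.050, limma adjusted p = 4.85e-05). The log2 fold change was -0.34 after GC correction (limma adjusted p = 1.31e-05) and -0.25 with the GC score as a covariate, where it did not pass (limma adjusted p = 0.291).

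AREG was the most abundant ligand per kilobase, and its difference was close to the spread between replicates. It had 29116, 31166 and 26496 normalised reads in siELF5 and 31757, 30714 and 33136 in siNC. The siELF5 values spread more widely than the siNC values, and the highest siELF5 value lay above the lowest siNC value. The log2 fold change of -0.14 (95% interval -0.25 to -0.03, SE 0.050) passed the test with a limma adjusted p of 0.0319. The call was lost in 8 of 19 alternative settings, among them GC correction (limma adjusted p = 0.0764) and the fits without siELF5 replicate 1 (limma adjusted p = 0.0671), without siELF5 replicate 3 (limma adjusted p = 0.112) or without siNC replicate 3 (limma adjusted p = 0.0890). The hg19 assembly carries a near-identical copy of AREG, which has no row of its own in the table, so how reads shared by both copies were counted is uncertain.

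EREG, HBEGF and BTC, which can bind ERBB4 as well as EGFR, did not pass the test. EREG had 1015, 1158 and 949 normalised reads in siELF5 and 1169, 1071 and 1069 in siNC, with a log2 fold change of -0.09 (95% interval -0.26 to 0.08, limma adjusted p = 0.385). HBEGF had 181, 145 and 197 in siELF5 and 204, 141 and 134 in siNC, with a log2 fold change of 0.14 (95% interval -0.25 to 0.54, limma adjusted p = 0.547). HBEGF was the gene most moved by the GC score as a covariate, to 1.13 (SE 0.388, limma adjusted p = 0.091). BTC was low, with 39 to 70 reads per library, and had 43.5, 38.3 and 71.9 normalised reads in siELF5 and 47.1, 51.6 and 52.6 in siNC. Its log2 fold change was -0.03 with a 95% interval of -0.60 to 0.54 (limma adjusted p = 0.936), so changes within this interval could not be told from none.

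ERRFI1, known as MIG6, binds the kinase domain of EGFR and ERBB2 and blocks it, and is itself induced by ERBB signalling. It had 2773, 2795 and 2779 normalised reads in siELF5 and 3244, 3402 and 3479.5 in siNC, without overlap. The means were 2782 ± 11.2 in siELF5 and 3375 ± 120.1 in siNC (SD, n = 3 each), 82.4% of siNC, and the log2 fold change was -0.28 (SE 0.043, limma adjusted p = 0.000172). The fall held after GC correction, at -0.24 (limma adjusted p = 0.000227), and with the GC score as a covariate, at -0.42 (limma adjusted p = 0.019). The inhibitor was lower in the same libraries in which EGFR was higher.

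Across all 10 genes, GC correction left 6 calls, with AREG lost, where 49.5% of the 14924 genes with a known GC content were called. The GC score as a covariate left 3 calls, EGFR upward and ERBB2 and ERRFI1 downward, where 7.15% of tested genes were called. By direction, 3518 of the 14924 genes were higher and 3869 lower after GC correction. With the score 509 of the 16032 tested genes were higher and 638 lower. The GC-adjusted counts of the lists below are to be set beside these. The median standard error over all tested genes was 0.151 with the score and 0.063 without it. The transcript GC content of the 10 genes lay between 36.1% for EREG and 57.5% for ERBB2, with a median of 48.6% over all tested genes. The authors' deposited table called the same 7 genes in the same directions, with log2 fold changes of 1.08 for EGFR, -0.65 for ERBB2 and -0.14 for AREG.

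**Figure D3:**
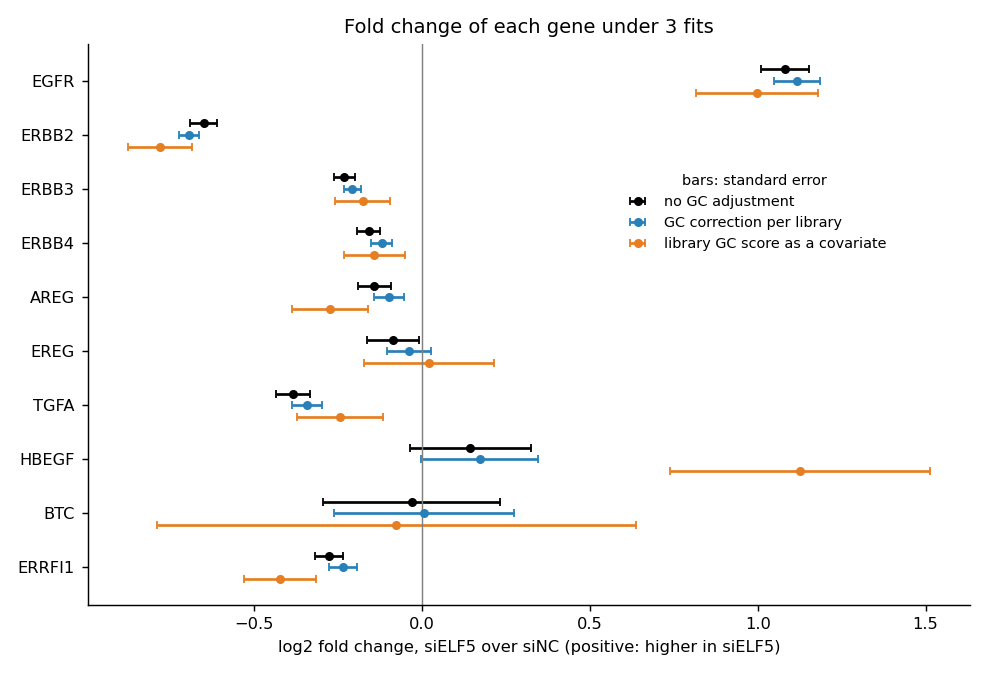
Log2 fold change of siELF5 over siNC (horizontal axis) for each of the 10 genes, without GC adjustment (black), after GC correction per library (blue) and in the fit with the library GC score (orange). Bars are standard errors. EGFR lies between 1.00 and 1.12 and ERBB2 between -0.78 and -0.65 in all 3 fits, whereas HBEGF moves to 1.13 in the third fit.

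The levels per kilobase spanned a wide range. AREG stood highest, with 23327 ± 1888 normalised reads per kilobase in siELF5 and 25700.5 ± 979.8 in siNC (SD, n = 3 each), above 99.3% of tested genes, and BTC stood lowest, with 18.2 ± 6.43 in siELF5 and 17.9 ± 1.04 in siNC. AREG alone made up 97.1% of the summed count per kilobase of the 5 ligands in siELF5 and 96.9% in siNC. In both groups the order fell from AREG through ERBB3, ERBB2 and ERRFI1, each apart from the next in every library. Further down, ERBB4 (443 ± 6.52) and TGFA (382 ± 7.6) did not overlap in siELF5, whereas in siNC ERBB4 (494 ± 4.48) and TGFA (499 ± 18.9) did overlap. EREG followed in both groups. EGFR came next with 155 ± 10.7 in siELF5, clear of HBEGF with 73.1 ± 11.1, while in siNC EGFR with 73.3 ± 4.45 overlapped HBEGF with 66.8 ± 16.1. With all annotated exon bases as the length, ERBB4 averaged 413 and TGFA 332 in siELF5, and ERBB4 averaged 461 and TGFA 433 in siNC, so their order in siNC depends on the length used.

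**Figure D4:**
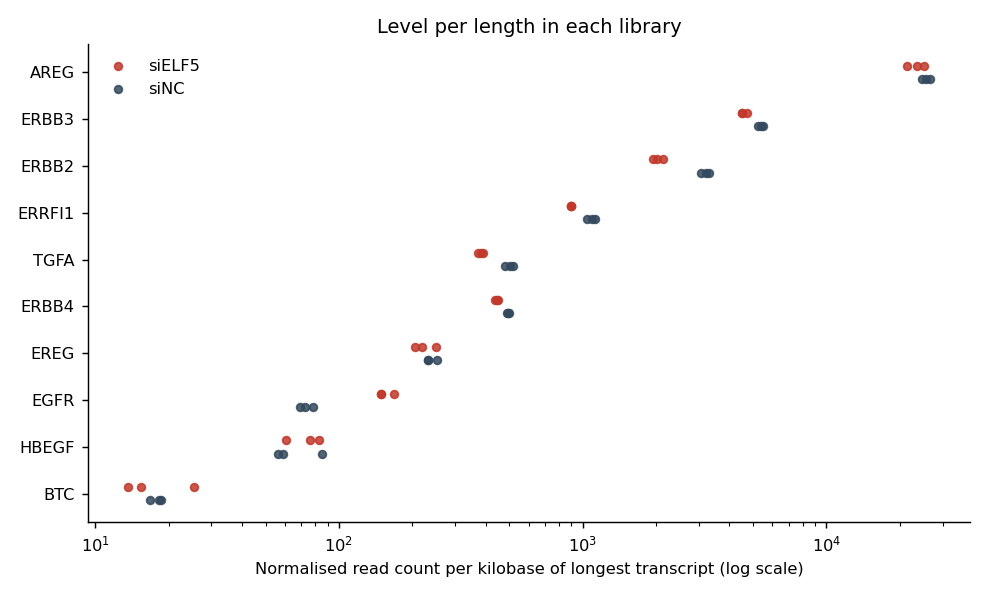
Normalised read count per kilobase of longest transcript (horizontal axis, log scale) for the 10 genes in each library, siELF5 (red) above siNC (dark blue) in each row. AREG is highest and BTC lowest in both groups, and EGFR is apart from HBEGF in siELF5 but overlaps it in siNC.

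Of the 6 remaining ligands of the family 3 were tested, and 2 of these fell, where 23.3% of all tested genes fell. EGF, which binds EGFR, had 556, 499 and 609 normalised reads in siELF5 and 704, 812 and 715 in siNC, without overlap, and its log2 fold change was -0.42 (SE 0.092, limma adjusted p = 0.00216). EPGN, another EGFR ligand, fell by 0.36 (SE 0.084, limma adjusted p = 0.0038). NRG4, a ligand of ERBB4, had a log2 fold change of -0.29 that did not pass (limma adjusted p = 0.102). NRG1, the main ERBB3 ligand, was listed at 0 in all 6 libraries, and NRG2 and NRG3 were under the minimum mean of 10. EPGN, EREG, AREG and BTC follow one another on chromosome 4 in GRCh38.p14, and their log2 fold changes were -0.36, -0.09, -0.14 and -0.03, with EREG and BTC not past the threshold. The calls of EGF and EPGN held after GC correction but not with the GC score as a covariate.

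Of 11 tested genes of ligand shedding, 8 rose and 1 fell, against 23.8% and 23.3% of all tested genes, and the median log2 fold change was 0.21. ADAM17 and ADAM10, the metalloproteases that release most EGF-family ligands, had log2 fold changes of 0.21 (limma adjusted p = 0.00467) and 0.32 (limma adjusted p = 3.95e-06) and were named after their values were seen. The largest increases among the called genes were those of 2 metalloprotease inhibitors. TIMP1 averaged 1063 ± 53.4 normalised reads in siELF5 and 499 ± 23.4 in siNC (SD, n = 3 each), a log2 fold change of 1.09, and TIMP2 averaged 20142 ± 858 in siELF5 and 12059 ± 207 in siNC, a log2 fold change of 0.74. These 2 proteases and 2 inhibitors all rose. After GC correction 5 of 10 such genes rose and 3 fell, where 49.5% of all genes with a known GC content were called. With the GC score as a covariate ADAM10, TIMP1 and TIMP2 still rose, where 7.15% of tested genes were called.

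Of 14 tested adaptors and proximal effectors of the receptors 8 fell and 1 rose, against 23.3% and 23.8% of all tested genes, and 5 did not pass. Their median log2 fold change was -0.18. PLCG1, the phospholipase that active EGFR recruits, averaged 7930.0 ± 473 in siELF5 and 11579 ± 138 in siNC (SD, n = 3 each), and the log2 fold change was -0.55 (SE 0.041, limma adjusted p = 4.36e-07). GAB1, a docking protein that links EGFR to PI3K, fell by 0.47 (SE 0.039, limma adjusted p = 9.52e-07). After GC correction 2 of the 14 were higher and 8 lower, where 49.5% of all genes with a known GC content were called. The fit with the GC score left 3 lower, PLCG1, GAB1 and GRB7, and 0 higher. In that fit 7.15% of tested genes were called.

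The RAS-ERK kinases and GTPases were split, with 4 of 12 tested genes higher, 4 lower and 4 not past the threshold. Of all tested genes 23.8% were higher and 23.3% lower. After GC correction 5 were higher and 4 lower, and in the fit with the GC score 1 was higher and 2 were lower. Of 13 genes of the PI3K-AKT route 4 rose, 4 fell and 5 did not pass, against the same shares of all tested genes. PIK3R3, a regulatory PI3K subunit, fell by 0.49 and INPP4B, a phosphatase that opposes PI3K, fell by 0.28. GC correction gave 3 higher and 4 lower. With the GC score 1 gene was called, PIK3R3 at -0.42 (limma adjusted p = 0.00943), while INPP4B was at -0.18 and did not pass (limma adjusted p = 0.319). For both lists the shares called over all genes were 49.5% after GC correction and 7.15% with the GC score.

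Genes of receptor trafficking, degradation and inhibition were also mixed, with 8 of 23 higher, 9 lower and 6 not past the threshold. Over all tested genes 23.8% were higher and 23.3% lower. UBASH3B, a phosphatase that counters CBL-driven degradation of EGFR, averaged 581 ± 75.3 in siELF5 and 322 ± 13.6 in siNC (SD, n = 3 each), a log2 fold change of 0.84 (limma adjusted p = 3.12e-05). SOCS4, which can promote EGFR degradation, fell by 0.22 (limma adjusted p = 0.000156). GC correction gave 6 higher and 9 lower, where 49.5% of all genes with a known GC content were called. With the GC score 2 were higher and 0 lower, where 7.15% of tested genes were called. In that fit UBASH3B was at 0.95 (limma adjusted p = 0.0389) and SOCS4 at -0.17, not past the threshold (limma adjusted p = 0.277).

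All 10 genes of a published set of ERK transcriptional targets passed the test, against 47.1% of all tested genes. Of these 8 were higher and 2 lower, where 23.8% of tested genes were higher and 23.3% lower, and the median log2 fold change was 0.55, against 0.00 over all tested genes. CCND1, the cyclin of the G1 phase, averaged 26283 ± 908 in siELF5 and 17490.0 ± 657 in siNC (SD, n = 3 each), and the log2 fold change was 0.59 (SE 0.036, limma adjusted p = 7.46e-08). SPRY4, a feedback inhibitor of receptor tyrosine kinase signalling that was named after its values were seen, had 663, 633 and 696 normalised reads in siELF5 and 314, 262 and 317 in siNC. The 2 targets that fell were EPHA4, an ephrin receptor, at -1.27 (SE 0.054, limma adjusted p = 3.18e-09), and PHLDA1 at -0.30 (limma adjusted p = 7.79e-05, likewise named after its values were seen). After GC correction the same count held, 8 higher and 2 lower, and with the GC score as a covariate 4 were higher and 2 lower. Over all genes, 49.5% were called after GC correction and 7.15% with the score. The values of the targets are transcript levels, and activity of the kinases was not measured.

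**Figure D5:**
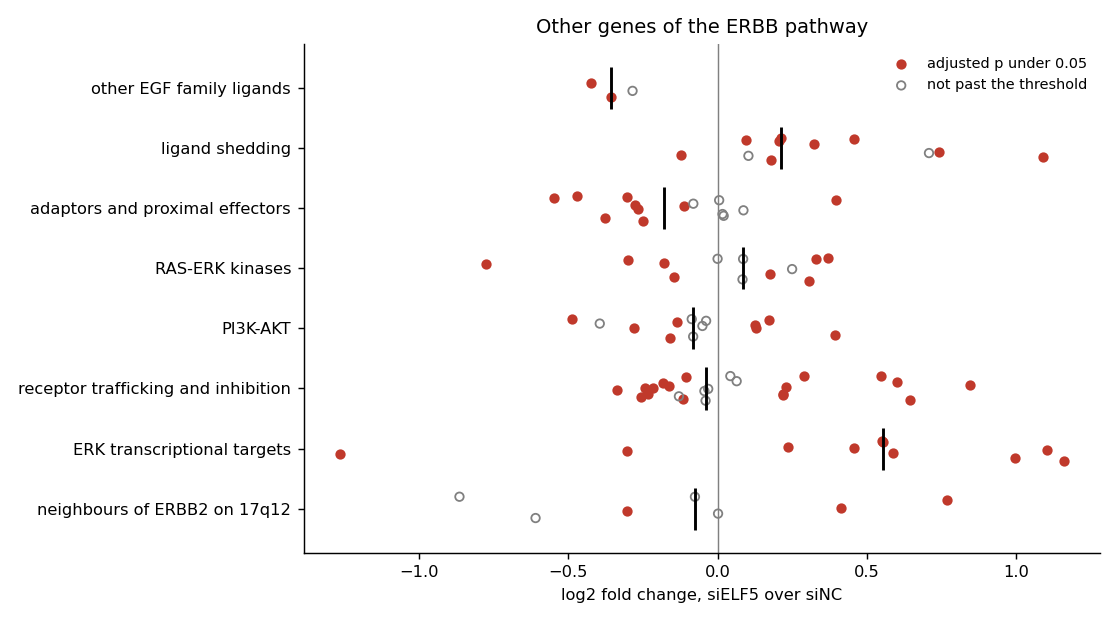
Log2 fold change of siELF5 over siNC (horizontal axis) for the other tested genes of the ERBB pathway, one row per list. Filled red points passed the threshold (adjusted p under 0.05), open points did not, and black bars are list medians. The ERK transcriptional targets have a median of 0.55, the adaptors -0.18 and the trafficking genes -0.04.

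In all, 65 of the 92 tested pathway genes were called (70.7%), against 47.1% of all tested genes. Of these 35 were higher and 30 lower, and the median log2 fold change over the 92 was 0.00. Of the 71 with a mean of at least 1000, 53 were called, against 58.3% of all tested genes with such a mean. With GC correction 31 rose and 34 fell of 91 genes, where 49.5% of all genes with a known GC content were called. In the fit with the GC score 10 rose and 8 fell, where 7.15% of tested genes were called.

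The genes whose pattern over the 6 libraries was most like that of each receptor were found by the root mean square difference of mean-centred log2 values among 12261 genes with a mean of at least 100. For EGFR they were ADAMTS15 (0.058), SPOCD1 (0.063) and ADORA1 (0.067). For ERBB2 they were PXN (0.027), TRAF4 (0.030) and C9orf3 (0.038). ERBB3 was most like GBA2 (0.0080), PIP4K2B (0.013) and CMTR1 (0.015), and ERBB4 most like ATF7 (0.0099), OTULIN (0.011) and RNF144B (0.012). The log2 fold changes of the 3 genes nearest EGFR were 1.05 to 1.15, and those of the 3 nearest ERBB2 were -0.65 to -0.62. Genes chosen by this likeness must have fold changes close to that of their receptor, so this closeness is not a separate result.

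The cells carried luminal markers at high levels. Of 9 luminal markers 4 rose and 2 fell, where 23.8% of tested genes rose and 23.3% fell. Among them were ESR1, the oestrogen receptor, at 0.45 and KRT18, a luminal keratin, at -0.45 on the log2 scale. The summed normalised count of the 9 was 677548 to 700684 in siELF5 and 731642 to 778670 in siNC. KRT8 averaged 188742 in siELF5 and 250610 in siNC, and KRT18 averaged 87936 in siELF5 and 119969 in siNC. ESR1, PGR, GATA3, FOXA1 and CDH1 averaged higher in siELF5, and KRT19 and EPCAM averaged slightly lower. The lower sum is therefore not a fall of all luminal markers. Basal and myoepithelial markers, genes of cells in which EGFR is usually high, were low. Of 9 such markers 6 were tested, 2 rose and 4 did not pass, where 23.8% of tested genes rose. Those that rose were ACTA2, a smooth muscle actin, at 1.05 and TP63 at 0.32 (limma adjusted p = 0.0483). OXTR averaged 99.4 in siELF5 and 116.6 in siNC, and VIM averaged 63.2 in siELF5 and 73.1 in siNC. MYLK averaged 654 in siELF5 and 664 in siNC, and KRT17 averaged 63.3 in siELF5 and 62.1 in siNC. The summed count of the 9 was 1799 to 1899 in siELF5 and 1413 to 1479 in siNC. ACTA2 alone averaged 739 in siELF5 and 356 in siNC. The defining basal keratins were near the floor, with KRT5 at 9.38 in siELF5 and 7.26 in siNC and KRT14 at 10.4 in siELF5 and 9.53 in siNC on average, and CNN1 was at 2.68 in siELF5 and at 0 in every siNC library. Of 10 stromal, endothelial and immune markers 3 were tested and 2 fell, COL1A1 at -0.42 and VWF at -1.14, where 23.3% of tested genes fell. The summed count of the 10, mostly COL1A1, was 3411 to 3973 in siELF5 and 4197 to 5381 in siNC. VWF averaged 12.9 in siELF5 and 29.6 in siNC. CD68 averaged 167 in siELF5 and 132 in siNC and did not pass. The other 7 were under the minimum mean of 10. Of these, CDH5 and PTPRC were at 0 in every siELF5 library and averaged 1.23 and 1.63 in siNC. COL1A2, COL3A1 and CD3E averaged higher in siELF5, and PDGFRB and PECAM1 averaged lower. In the fit with the GC score 1 luminal marker was higher and 2 were lower, 1 basal marker was higher, and 1 marker of the last list was lower. Over all tested genes 7.15% were called in that fit. The part of these markers in the receptor results was not tested.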

How the data were processed

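RNA of 3 siELF5 and 3 siNC libraries of T47D cells was sequenced from TruSeq RNA v2 libraries, per the labels' protocols, a kit that does not mark strand. STAR 2.6, Subread, featureCounts 1.6.3, DESeq2 1.22.1 and the build hg19 are named in the submitters' processing notes, with no order or settings. The deposited per-library values are signal values, gene counts that the authors divided by a size factor per library, as the spacing of the values shows, and are called normalised read counts here. All values were whole multiples of 1 read (100%, tolerance 1e-06). The deposited log2 fold changes, score (their Wald statistic) and p-values, raw and adjusted, come from DESeq2 as run by the authors, per the file headers, and served only for comparison.

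Differences were tested two-sided with limma 3.58.1 (R 4.3.3), its variance prior following the mean level, after taking log2(value + 1) of the 16032 genes with a mean of at least 10, adjusted by Benjamini-Hochberg at 0.05. Fold changes on this scale understate those of low genes. Alternatives included edgeR 4.0.16 and DESeq2 1.42.0 on the recovered reads, which call 7578 and 7097 genes. The procedure was tested on simulated counts with the same dispersion for every gene and no GC difference between the groups. That test therefore cannot speak to the GC difference between these libraries. Replicates of a group differed beyond counting error (chi-square per degree of freedom 4.37 to 12.0). Each library was treated as 1 sample, although such spread cannot show that the cultures were separate. The GC correction removes from each library a loess fit (span 0.3) of gene deviations on the GC content of its longest GENCODE 29 transcript, matched for 93.1% of tested genes. Named genes were the 10 members, ELF5, from each pathway list up to 2 called genes of smallest adjusted p, the neighbours of ERBB2, the other ligands and 3 genes per receptor by likeness; others are marked, and some genes that this rule takes are not reported here. The members and lists were chosen with earlier results of these data known. Sequences and windows are RefSeq on GRCh38.p14, exon overlaps are from GENCODE 29, and counts were made on hg19, so none was looked up by coordinate.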

Additional observations from a re-analysis of the deposited data

How the results depend on the processing

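EGFR, ERBB2 and ERRFI1 kept their direction and their call in all 19 alternatives, with log2 fold changes of 1.00 to 1.13 for EGFR, -0.78 to -0.62 for ERBB2 and -0.42 to -0.24 for ERRFI1. ERBB3, ERBB4 and TGFA kept theirs in 18, all but the library GC score as a covariate. That covariate gave 1147 genes over the whole table, 3 of the 10 family genes (2 of them lower) and 18 pathway genes (10 higher and 8 lower). The groups do not overlap in the score, and the median standard error over all tested genes was 0.151 with it and 0.063 without it. The cause of the lost calls was not tested. AREG lost its call in 8 alternatives, with adjusted p up to 0.169. Among the genes that did not pass, the sign was reversed in 1 of 19 alternatives for EREG, in 1 for HBEGF and in 5 for BTC. EREG was at 0.022 with the GC score and HBEGF at -0.033 after quantile scaling. BTC was at 0.0064 after GC correction, 0.013 in edgeR and 0.016 in DESeq2, and ran from -0.30 to 0.15 when 1 library was left out. Leaving out 1 library gave 6164 to 7312 genes called in all, 6 to 7 of the family and 57 to 65 pathway genes. Replicates with the same number did not deviate together over all tested genes (correlations 0.015, -0.035 and -0.056). The main fit did not pair them, and these correlations cannot exclude a shared culture or preparation. With the replicate block 7174 genes, 6 family genes and 64 pathway genes were called, and AREG had an adjusted p of 0.0570 in limma. Scaling moved the median of all genes by at most 0.033 on the log2 scale. With exon union lengths the EGFR share was 1.67 percentage points higher in siELF5 and the ERBB3 share 3.29 points higher. BTC had 39 to 70 reads per library, so counting error bears on it more than on the abundant genes.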
